A study of Homo sapiens with 24 samples.

Results

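The early transcriptional response of PEO4 cells to pyridostatin (PDS) was read from 6 RNA-seq libraries, 3 of untreated cells and 3 of cells kept for 2 h in medium with 5 µM PDS. Every gene with enough counts was taken as a member, which left 17020 of the 28277 genes in the table of 18 libraries. PEO4 is an established high-grade serous ovarian carcinoma line that resists cisplatin and has regained BRCA2 function, and the labels give its genotype as WT. The same table holds PEO4 cells treated for 6 h and PEO1 BRCA2+ cells (the BRCA2-deficient sister line PEO1 with BRCA2 reinstated) untreated or treated with the same dose for 2 or 6 h, each in 3 libraries. The series has 24 libraries in all, and the other 6 are untreated PEO1 and PEO4 cells counted in a table of their own. The submitters describe the replicates as biological. Untreated cells are labelled as having no treatment and no treatment time, so a change of medium or solvent at the start of the 2 h cannot be told apart from PDS.

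G-quadruplexes (G4s) are folded structures in which runs of guanines stack into planes of hydrogen-bonded bases, and they form in DNA, often close to active gene starts, as well as in RNA. PDS is a small molecule that binds and stabilises G4s. Transcripts that turn over quickly can fall soon after their synthesis slows, whereas long-lived transcripts cannot fall far within hours, and steady-state RNA-seq reads the sum of synthesis and decay.

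Counts on genes summed to between 18699929 and 21893402 in the untreated and between 35633786 and 43156993 in the 2 h libraries, so the treated libraries were the deeper ones. Ribosomal RNA genes took between 0.251% and 0.355% of counts in the untreated and between 0.0186% and 0.0217% in the 2 h libraries, a difference that PEO1 BRCA2+ shared; its part in the results below was not tested. Across genes, log2 CPM (counts per 1000000 after TMM scaling) of untreated replicate 2 lay closer to the 2 h libraries (Pearson r between 0.961 and 0.964) than did that of replicate 1 (between 0.9502 and 0.9528) or of replicate 3 (0.945 to 0.946), while the 2 h libraries correlated among themselves at 0.994 or more. The numbers of genes called at 2 h and for the line difference were therefore also counted without it, and the other counts over all genes were not. The ovarian carcinoma markers PAX8, WT1 and EPCAM were present in all 6 libraries, at 227, 244 and 206 CPM for PAX8 in the untreated and 203, 192 and 203 CPM in the 2 h libraries. Markers of other cell types summed to between 42.0 and 52.8 CPM untreated and 71.1 and 102 CPM at 2 h for fibroblasts, of which 6 of 10 were tested. For endothelium (5 of 6 tested) the sums were 13.1 to 44.7 and 87.2 to 106 CPM, and for leukocytes (4 of 8 tested) 36.0 to 57.9 and 75.1 to 84.6 CPM. These sums were higher at 2 h, while those of mesothelium (4 of 6 tested) were lower, at 97.0 to 128 and 62.7 to 67.0 CPM, and their part in the results was not tested. No read fell on CDH5, which defines endothelium, or on PTPRC, which defines leukocytes, in any of the 6, but other markers of these lists changed in both directions. The endothelial receptor TIE1 had 17.8, 40.4 and 8.66 CPM untreated and 100.5, 82.5 and 102 CPM at 2 h, and the monocyte marker CD14 1.86, 2.56 and 1.57 CPM and 5.55, 6.03 and 6.12 CPM. The endothelial markers PECAM1 (-2.59) and VWF (-1.12) and the leukocyte marker CD79A (-1.74) fell. Of the fibroblast markers THY1 (3.14) was called higher and COL1A1 (-1.92) and COL3A1 (-2.87) lower, with a list median of -0.51.

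A gene was called changed at a Benjamini-Hochberg adjusted p under 0.05 from edgeR's quasi-likelihood test with an absolute log2 fold change over 1, so every call is at least a 2-fold change in the fit. After 2 h of PDS, 2959 of the 17020 genes were called, 17.4% of those tested. More fell than rose: 1870 genes (11.0%) were lower and 1089 (6.40%) were higher. Large falls were also more frequent, with 280 genes lower and 121 higher by more than 3 on the log2 scale. By more than 5, 58 were lower and 13 higher. These sizes are fitted values without a floor on counts, so genes with few or 0 counts in a group can enter the largest classes. Of all genes tested, 484 had a group with at most 3 counts in each library. Without untreated replicate 2, 1990 genes were lower and 1250 higher. The untreated and 2 h libraries did not overlap for 10926 of the 17020 genes, among them 95.2% of those called lower and 97.8% of those called higher. Library totals in place of TMM moved the median of all genes from 0.00 to -0.13, and the calls to 2259 lower and 863 higher. In bulk RNA, fewer cells that express a gene and less of its RNA per cell cannot be told apart.

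The genes that fell furthest included several that build or protect the surface layers of squamous epithelia. TGM3 (chr20:2296001-2341079, GRCh38), a transglutaminase that crosslinks proteins of the cornified envelope, had 607, 213 and 503 CPM in untreated replicates 1, 2 and 3 and 2.03, 1.87 and 1.68 CPM after 2 h. Its log2 fold change was -7.89 (SE 0.402, adjusted p = 1.4e-09). The groups were far apart, with untreated replicate 2 the lowest of the untreated. LORICRIN (chr1:153259687-153262124), the most abundant protein of that envelope, went from 85.5, 36.8 and 45.9 CPM to 0.7499, 0.481 and 0.912 CPM, a log2 fold change of -6.27 (SE 0.457, adjusted p = 1.4e-05). CRCT1 (chr1:152514482-152516008), a gene of the epidermal differentiation complex, fell from 55.3, 9.29 and 35.7 CPM to 1.08, 0.793 and 0.816 CPM. Here replicate 2 was again the lowest untreated library but still stood above all treated ones, and the log2 fold change was -5.22 (SE 0.548, adjusted p = 2e-06). Protease inhibitors of epithelial surfaces fell with them. PI3 (chr20:45174902-45176544), which encodes the elastase inhibitor elafin, had 411, 126 and 208 CPM untreated and 6.03, 5.18 and 6.31 CPM at 2 h (log2 fold change -5.41, SE 0.383, adjusted p = 4.1e-08). SPINK6 (chr5:148202778-148215137), an inhibitor of kallikreins, had 29.9, 27.3 and 12.6 CPM untreated and 0.555, 0.368 and 0.792 CPM at 2 h (-5.31, SE 0.324, adjusted p = 1.7e-10). SERPINB2 (chr18:63887705-63903888), an inhibitor of plasminogen activators, had 181, 58.6 and 121 CPM untreated and 2.25, 1.56 and 2.74 CPM at 2 h (-5.77, SE 0.382, adjusted p = 2e-08). In each of these 3 genes the groups did not overlap, which the choice of genes required.

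The other 4 of the 10 genes with the largest falls have roles in transcription, adhesion and signalling. FOXQ1 (chr6:1312098-1314758), a forkhead transcription factor gene, had 154, 59.1 and 247 CPM untreated and 1.17, 0.736 and 0.864 CPM at 2 h, a log2 fold change of -7.38 (SE 0.553, adjusted p = 7.4e-08). LRRTM1 (chr2:80288356-80304752), a synaptic adhesion protein gene inside the span of CTNNA2, had 275, 184 and 275 CPM untreated and 2.06, 2.01 and 1.61 CPM at 2 h, a log2 fold change of -7.02 (SE 0.17, adjusted p = 1.8e-15). In both genes replicate 2 was the lowest untreated library and stood far above the treated ones. BMPER (chr7:33904915-34156427), a secreted BMP-binding protein, fell from a mean of 22.97 CPM to 0.479 CPM, and PTH1R (chr3:46877721-46903799), the receptor of parathyroid hormone, from 20.7 CPM to 0.517 CPM. Their log2 fold changes were -5.56 (adjusted p = 8.2e-08) and -5.32 (adjusted p = 1.6e-12). A fall of TGM3's size over 120 min equals a halving every 15.2 min if it ran at a constant rate from the start of treatment, and that of FOXQ1 a halving every 16.3 min. Among the 713 genes called lower with at least 8 CPM untreated, 47 fell fast enough for a halving in under 30 min and 7 for one in under 20 min. These times are arithmetic on 2 time points and not measured decay rates.

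Within the same limits, the genes with the largest rises had varied known roles. DEPTOR (chr8:119873722-120050918), which encodes an inhibitory subunit of the mTOR complexes, had 1.47, 3.92 and 1.61 CPM untreated and 118, 137 and 101 CPM at 2 h, a log2 fold change of 5.70 (SE 0.219, adjusted p = 5.9e-12). SRPX (chrX:38149339-38220871), a sushi-repeat protein gene, had 5.07, 11.5 and 5.67 CPM untreated and 191, 185 and 183 CPM at 2 h (4.67, SE 0.19, adjusted p = 3.3e-11). THBS1 (chr15:39581079-39599466), the secreted matrix protein thrombospondin-1, was the most abundant of the 10 after treatment, with 23.7, 38.9 and 19.3 CPM untreated and 478, 586 and 431 CPM at 2 h (4.20, SE 0.207, adjusted p = 6e-10). In all 3 every treated library stood far above every untreated one, and replicate 2 was the highest of the untreated. IGFBP5 (chr2:216672105-216695549), an insulin-like growth factor binding protein, had 0.649, 5.62 and 0.507 CPM untreated and 37.9, 53.7 and 28.04 CPM at 2 h (4.20, SE 0.515, adjusted p = 9.4e-06), so that replicate 2 held most of the untreated signal. Without that library the log2 fold change of IGFBP5 was 6.09. The others were the long non-coding RNA LINC00673 (4.22), the short-chain dehydrogenase DHRS2 (4.06), the peptidase TRHDE (3.87), the semaphorin and VEGF coreceptor NRP1 (3.77), the potassium channel subunit KCNF1 (3.76) and the protease inhibitor SERPINE2 (3.75). Without untreated replicate 2 the log2 fold change was 4.99 for LINC00673, 4.57 for TRHDE, 4.93 for NRP1 and 4.87 for SERPINE2. By the quasi-likelihood test of edgeR, adjusted p for these 6 ran from 2.8e-12 for LINC00673 to 4.9e-06 for SERPINE2.

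By 6 h several of the risers had come back down, while the fallers had not recovered. The 6 h libraries are set beside the same untreated and 2 h libraries here, so the values below are not independent of those above. At 6 h DEPTOR stood at 10.6, 10.8 and 10.96 CPM, DHRS2 at 7.01, 7.93 and 11.3 CPM and KCNF1 at 31.98, 33.6 and 40.6 CPM. DHRS2 was thereby back near its untreated range, and DEPTOR and KCNF1 remained above theirs. THBS1 (442, 418 and 476 CPM), SRPX (138, 133 and 132 CPM) and TRHDE (40.7, 39.3 and 39.9 CPM) were still close to their 2 h levels. TGM3, FOXQ1 and LRRTM1 had means of 1.16, 1.12 and 1.797 CPM at 6 h, and of the 10 fallers the highest mean was that of SERPINB2 at 6.82 CPM. Over all genes, 1066 (6.26%) were higher and 2782 (16.3%) lower at 6 h than untreated, and between 2 h and 6 h 387 (2.27%) rose and 1652 (9.71%) fell.

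**Figure D1:**
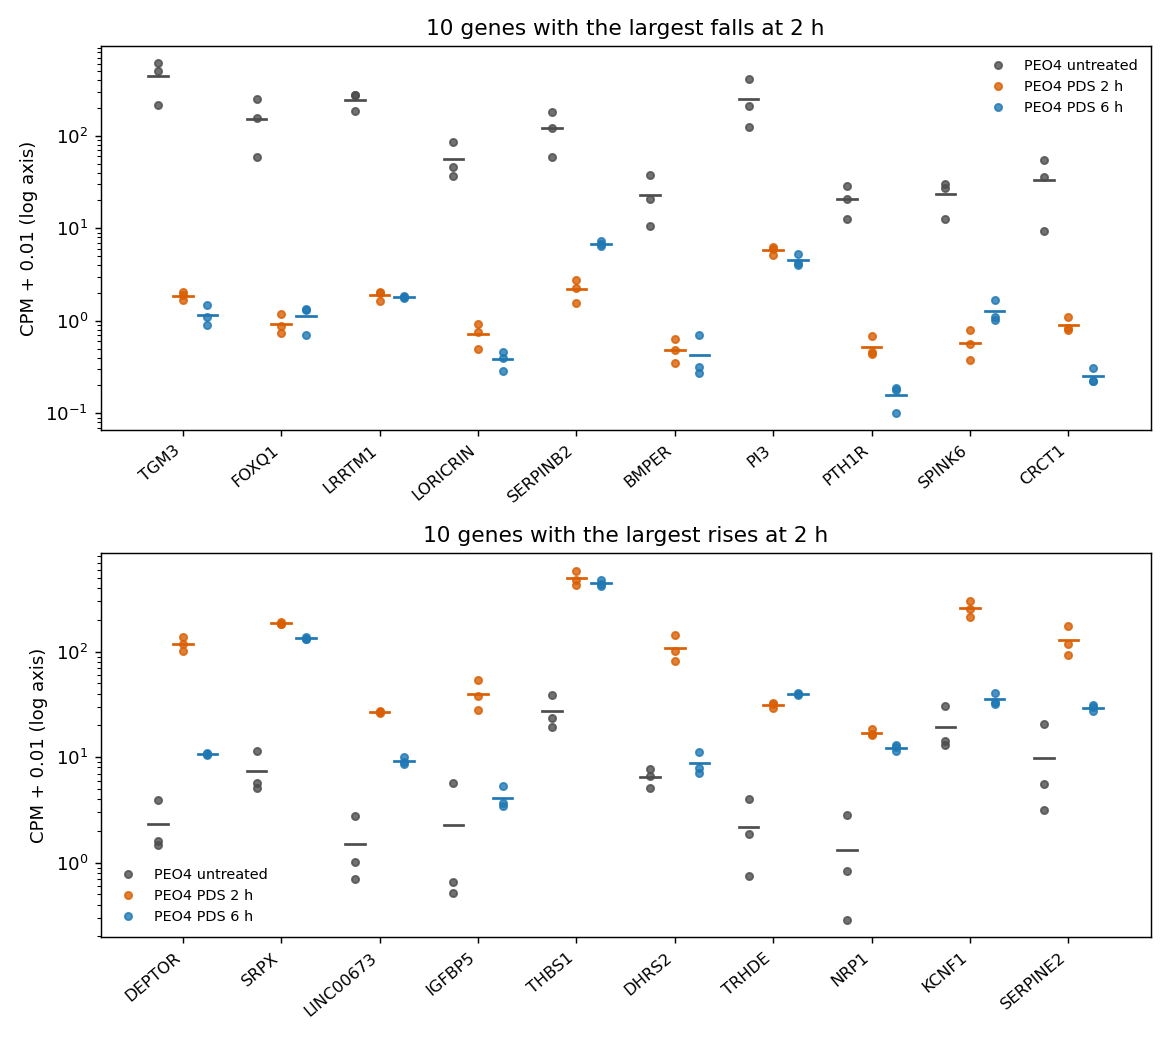
CPM after TMM scaling, plus an offset of 0.01, on a log axis in each PEO4 library. Shown are the 10 genes named for the largest falls (top) and rises (bottom) at 2 h. Points are single libraries of untreated, 2 h and 6 h cells and bars are means of 3. All untreated points of the fallers lie above all 2 h points and the reverse holds for the risers, as the choice of genes required. DEPTOR, DHRS2 and KCNF1 drop again by 6 h.

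The second set of untreated PEO4 libraries, counted and scaled in its own table, shows these levels in other untreated cells of the line. Per the study's methods, sodium pyruvate was added to the medium of PEO4 cells that correspond to BRCA2-deficient PEO1, taken here to be this set. There FOXQ1 had between 112 and 138 CPM, within the range of the untreated libraries above. TGM3 had between 8.31 and 15.8 CPM and PI3 between 5.55 and 8.905 CPM, nearer the 2 h level than the untreated one on the log2 scale, and LORICRIN had at most 0.185 CPM. Of the 1870 genes called lower, the mean of that set lay nearer the 2 h mean than the untreated mean on the log2 scale (0.5 CPM added) for 884, or 47.3%, and at or beyond the 2 h mean for 537 (28.7%). Of the 1089 called higher it lay nearer the 2 h mean for 399 (36.6%). Replicate 2 was the untreated library nearest to the 2 h cells for 1026 of the genes called lower (54.9%) and 670 of those called higher (61.5%). The tables were normalized separately, and neither the difference between the untreated sets nor the part of the medium in it was tested.

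Start regions were searched for the G4 motif, at least 4 runs of at least 3 Gs with loops of 1 to 7 bases, on both strands of the 300 bases from 250 before to 50 after each RefSeq start (GRCh38.p14). Of the 20 genes named above for the largest changes, 16 had such a window and 2 of them held a motif. Motif stretches of 1 of these, LINC00673, and of 6 called genes of the families described below are shown in the direction of the gene, with runs of G in capitals where the motif is on the gene's strand and runs of C where it is on the other. The choice was made among genes with a motif after the fold changes were seen, to show both rising genes (LINC00673, KLF6) and falling ones. Windows of FOS, LGR6, BMP4, INHBA, BAMBI, CCN2 and VIM, searched in the same way, held no motif.
LINC00673 (chr17:72592873-72592891, minus strand): CCCCaCCCCCtCCCCgCCC
KLF6 (chr10:3785335-3785357, minus strand): GGGccGGGagccacGGGattGGG
EGR1 (chr5:138465264-138465287, plus strand): GGGcgcctGGGatgcGGGcgcGGG
WNT6 (chr2:218859623-218859645, plus strand): CCCCgCCCCggcaCCCCgctCCC
WNT10A (chr2:218880643-218880668, plus strand): CCCCggcaCCCCagcctCCCgtCCCC
APCDD1 (chr18:10454416-10454439, plus strand): GGGGaaggaGGGaagcGGGaGGGG
SMAD6 (chr15:66702059-66702085, plus strand): GGGcGGGGGtgccGGGGtggtgtGGGG

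Windows with the motif made up 283 of 789 windows of genes called higher (35.9%), 425 of 1177 of genes called lower (36.1%) and 4282 of 12721 of all genes tested (33.7%). With loops of up to 12 bases the shares were 50.2%, 51.7% and 49.7%. Among protein-coding genes they were 36.6% of windows of genes called higher, 38.4% of those called lower and 34.3% of those tested. With the longer loops these were 51.5%, 54.0% and 50.7%, and the differences were not tested. Median GC content was 63.3% and 63.7% in windows of genes called higher and lower and 64.7% in all. A match describes letters in the window and is no evidence that a G4 forms there. The called genes did differ in type: 82.2% of those higher and 72.1% of those lower were protein-coding, against 83.8% of all tested, and microRNA genes made up 5.78% of those lower against 1.86% of all. Many microRNA genes lie inside longer transcripts, and their reads here cannot be told apart from those of the host.

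Genes of the cornified envelope and squamous differentiation formed the list with the highest share of falls. Of 32 tested members 22 were called lower (68.8%, beside 11.0% of all genes) and 2 higher (6.25%, beside 6.40%). Their median log2 fold change was -1.92 beside 0.00 for all genes. TP63, the master transcription factor of squamous epithelia, had 4.63, 5.02 and 6.45 CPM untreated and 0.194, 0.0849 and 0.144 CPM at 2 h (log2 fold change -5.20, SE 0.265, adjusted p = 2.2e-14), with the untreated libraries close together and far above the treated. SPRR3, a small proline-rich envelope protein, had 205, 23 and 75 counts untreated and 3, 0 and 8 at 2 h. FLG, KRT5 and TGM1, named here after their values were seen, encode filaggrin, a basal keratin and the main envelope transglutaminase. FLG went from 122, 36.6 and 133 CPM to 2.97, 3.09 and 3.19 CPM, KRT5 from 243, 101 and 179 CPM to 9.92, 11.9 and 10.4 CPM and TGM1 from 403, 287 and 357 CPM to 56.3, 59.1 and 47.4 CPM. None of the 3 had overlapping groups, and neither did 95.2% of all genes called lower. The exceptions were KLK6 (1.31) and KRT17 (1.03), a kallikrein and a keratin, both called higher, although without treated replicate 2, or with library totals, 1 member was. In PEO1 BRCA2+ 2 members were called in each direction, where 1087 genes (6.39%) were lower and 201 (1.18%) higher among all genes, and LORICRIN had no read and TGM3 a mean of 0.146 CPM in its untreated libraries. In the second untreated PEO4 set TP63 (4.11 and 6.92 CPM) and TGM1 (440.5 and 703 CPM) were not low. By contrast TGM3 lay nearer its 2 h level there and LORICRIN below it, as described above. The other members are not given for that set.

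**Figure D2:**
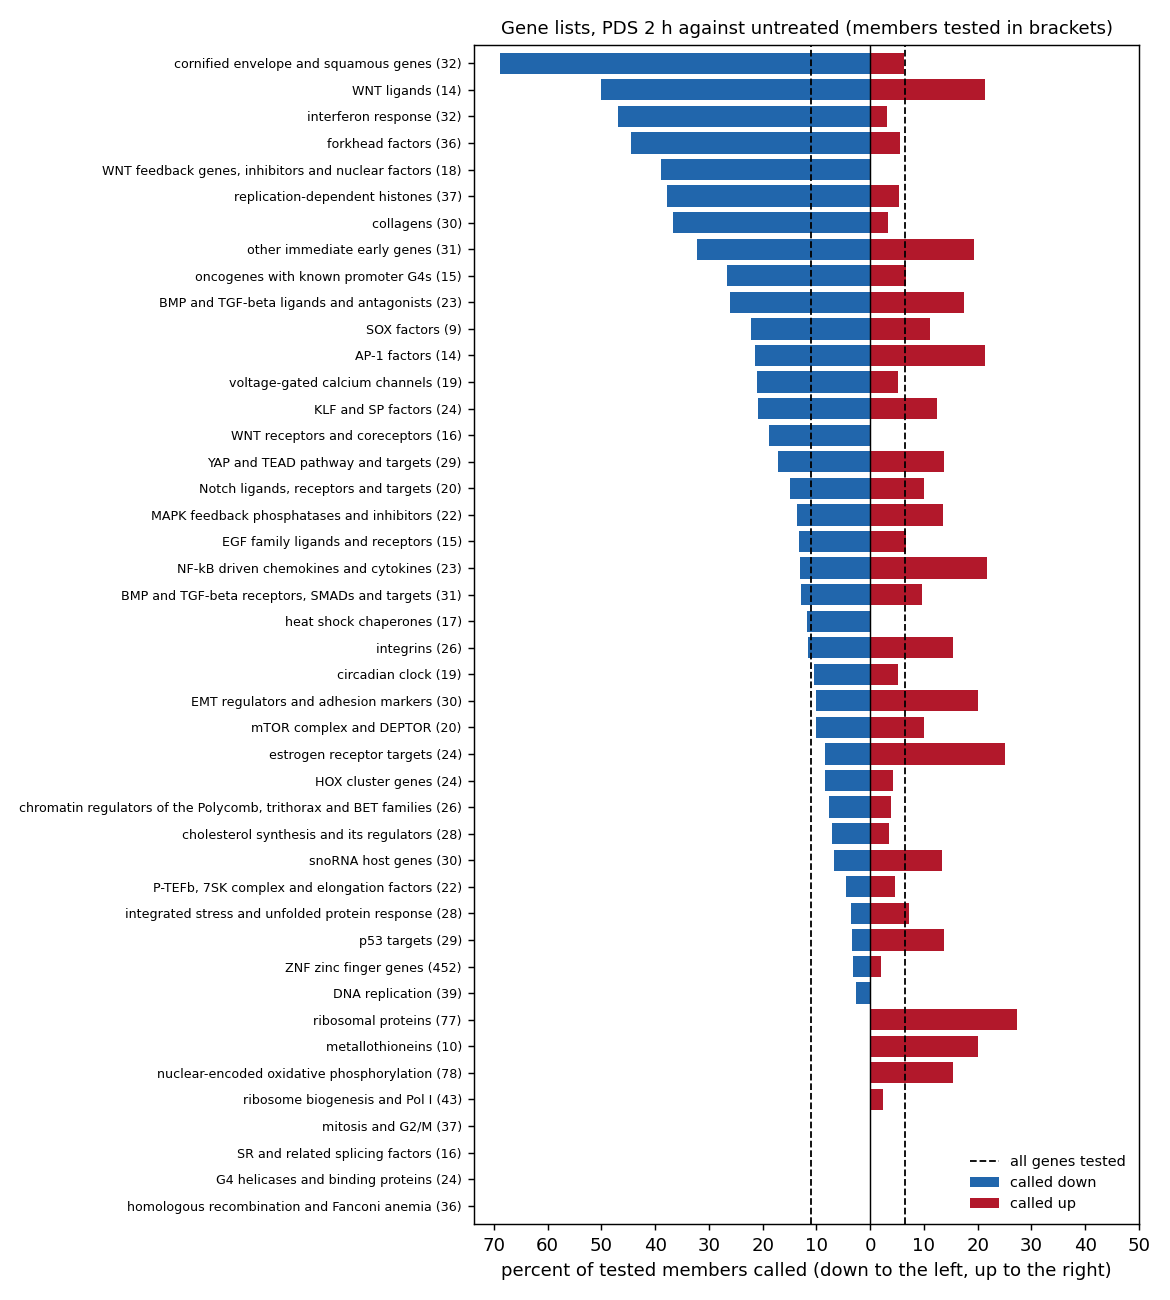
Percent of tested members of each gene list called lower (left) or higher (right) in PEO4 after 2 h of PDS, with the number tested in brackets and dashed lines at the shares of all genes, 11.0% lower and 6.40% higher. Cornified envelope, WNT ligand, interferon and forkhead lists extend furthest to the left, and ribosomal proteins (27.3%) furthest to the right.

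Immediate early genes, which are switched on within minutes by growth factor signals and have short-lived mRNAs, moved in both directions. Of 14 AP-1 factors 3 fell and 3 rose (21.4% each), and of 31 other immediate early genes 10 fell (32.3%) and 6 rose (19.4%). Of all genes 11.0% fell and 6.40% rose. FOS had 412, 238 and 75.8 CPM untreated and 16.6, 25.3 and 12.8 CPM at 2 h (log2 fold change -3.74, SE 0.579, adjusted p = 8.1e-05), and EGR1 had 704, 537 and 301 CPM untreated and 37.7, 56.8 and 38.5 CPM at 2 h (-3.54, SE 0.345, adjusted p = 1e-06). Both were lowest in untreated replicate 3, which still stood well above every treated library, and FOS stood at -3.11 without untreated replicate 1. FOSL2 fell from 673, 624 and 698 CPM to 214, 239 and 187 CPM with little spread (-1.64, adjusted p = 7.7e-16). NR4A3, an orphan nuclear receptor gene, rose from 1.91, 2.31 and 1.34 CPM to 8.999, 13.3 and 6.03 CPM (2.35, adjusted p = 5.3e-08), and EGR3 (2.28) rose from under 0.5 CPM in each untreated library. At 6 h NR4A3 was back at 1.27 CPM and EGR3 at 0.217 CPM. The AP-1 rises depended on the settings: without treated replicate 2, or with library totals, 1 AP-1 factor was called higher, and BATF3 stayed under 1 CPM throughout.

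Of 22 genes that restrain MAP kinase signalling 3 rose and 3 fell, 13.6% each beside 6.40% and 11.0% of all genes. DUSP4, a phosphatase of ERK, rose from 28.6, 38.9 and 13.7 CPM to 134, 151 and 116 CPM (2.31, adjusted p = 1.7e-06). ERRFI1, a feedback inhibitor of the EGF receptor, rose from 61.5, 73.2 and 59.6 CPM to 244, 255 and 231 CPM (1.91, adjusted p = 1.6e-16). DUSP1, a phosphatase with immediate early kinetics, fell from 424, 396 and 121 CPM to 81.4, 100.2 and 71.6 CPM (-1.90, adjusted p = 0.0004), and PHLDA1 from 529.7 CPM to 124 CPM (-2.09, adjusted p = 9.1e-14). The groups did not overlap in any of these, as in 97.8% of all genes called higher and 95.2% of those called lower. Among 15 EGF family ligands and receptors, the receptors ERBB4 and ERBB3 fell and the ligand EREG (epiregulin) rose. ERBB4 had 26.6, 21.5 and 23.4 CPM untreated and 1.44, 1.73 and 1.27 CPM at 2 h (-4.01, SE 0.165, adjusted p = 5.9e-16), and EREG 19.3, 19.9 and 10.6 CPM and 47.9, 35.9 and 45.4 CPM (1.38, adjusted p = 3.8e-06).

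WNTs are secreted lipid-modified proteins that signal through Frizzled and LRP receptors to beta-catenin or to polarity and calcium branches. Of 14 tested ligands 7 fell (beside 11.0% of all genes) and 3 rose (beside 6.40%), with a median of -0.82. WNT10A had 147, 134 and 145 CPM untreated and 11.1, 12.7 and 11.3 CPM at 2 h (-3.60, SE 0.0892, adjusted p = 1.8e-19), with both groups close together and far apart from each other. Its neighbour WNT6 had 80.8, 47.96 and 77.1 CPM untreated and 4.25, 7.76 and 4.78 CPM at 2 h (-3.62, SE 0.224, adjusted p = 2.1e-09), and the annotated spans of this pair overlap, so reads in the overlap could be given to either. WNT5A, the main non-canonical ligand, fell from 10.4, 9.49 and 11.2 CPM to 1.14, 1.5 and 1.39 CPM (-2.94, adjusted p = 4.7e-14). WNT3 fell from a mean of 0.634 CPM (-3.06, and -5.21 without treated replicate 2). WNT9A, WNT5B and WNT16 were the risers, named after their values were seen, at log2 fold changes of 1.30, 1.32 and 2.54.

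Receptors and feedback genes of the WNT pathway did not rise with any call. Of 16 receptors and coreceptors 3 fell (18.8%), and of 18 feedback genes, inhibitors and nuclear factors 7 fell (38.9%). Of all genes 11.0% fell and 6.40% rose. LGR6, a receptor of the R-spondins that amplify WNT signals, had 94.4, 50.2 and 132 CPM untreated and 6.83, 7.59 and 6.65 CPM at 2 h (-3.72, SE 0.277, adjusted p = 6e-08). APCDD1, a membrane-bound WNT inhibitor, had 218, 176 and 281 CPM untreated and 12.6, 12.97 and 11.9 CPM at 2 h (-4.17, SE 0.182, adjusted p = 7e-11). AXIN2, the classic beta-catenin target and scaffold of its destruction complex, had 29.96, 10.9 and 37.7 CPM untreated and 2.92, 3.34 and 2.64 CPM at 2 h (-3.15, SE 0.343, adjusted p = 1.8e-06). In all 3 genes untreated replicate 2 was the lowest of its group and still stood above every treated library. NOTUM, a secreted WNT deacylase, had 82, 22 and 179 counts untreated and 2, 0 and 4 at 2 h, and LEF1, a nuclear partner of beta-catenin, 18, 2 and 13 and 0, 0 and 2 counts. ROR1 and FZD1, receptors for WNT5A and other ligands, fell by less, at -1.95 and -1.38. Without untreated replicate 2, 5 receptors were called lower and 1 higher, and 1 feedback gene was called higher.

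Ligands of the BMP and TGF-beta family, secreted dimers that signal through SMADs, changed in both directions. Of 23 tested ligands and antagonists 6 fell (26.1%, beside 11.0% of all genes) and 4 rose (17.4%, beside 6.40%). BMP4 had 76.1, 33.1 and 111 CPM untreated and 2.78, 2.35 and 2.35 CPM at 2 h (-4.88, SE 0.37, adjusted p = 7.2e-08), and INHBA, the subunit of activin A, 12.4, 26.7 and 9.77 CPM untreated and 167, 196 and 167 CPM at 2 h (3.45, SE 0.247, adjusted p = 4.2e-08). BMP7 and BMP2, named after their values were seen, were also lower, at -3.26 and -2.56, as was INHBB, another activin subunit, at -2.77. The other risers were GDF15 (1.66, or 2.26 without untreated replicate 3), a stress-induced family member, and the antagonists FST (1.23) and CHRDL1 (1.21), the last pair named after their values were seen. FST stood at 2.06 without untreated replicate 2 and lost its call under 4 other settings. Of 31 receptors, SMADs and targets 4 fell (12.9%) and 3 rose (9.68%), near the shares of all genes. The BMP-induced inhibitor SMAD6 had 280.2, 230.4 and 324 CPM untreated and 37.2, 37.99 and 39.6 CPM at 2 h (-2.86, SE 0.0954, adjusted p = 1.3e-15), and the decoy receptor BAMBI 208, 69.5 and 196 CPM and 19.9, 19.4 and 19.1 CPM (-3.02, adjusted p = 1.6e-06). PMEPA1, a target and inhibitor of TGF-beta signalling, rose from 124, 146 and 98.7 CPM to 466, 502 and 456 CPM (1.95, adjusted p = 4e-14).

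YAP is a transcriptional coactivator that responds to cell shape and density and acts through the TEAD transcription factors. Of 29 tested genes of their pathway 4 rose (13.8%, beside 6.40% of all genes) and 5 fell (17.2%, beside 11.0%). CCN2, a secreted matricellular protein and standard YAP target, had 121, 102 and 42.01 CPM untreated, 583, 664 and 572 CPM at 2 h and 63.1, 70.1 and 61.9 CPM at 6 h, a log2 fold change at 2 h of 2.78 (SE 0.307, adjusted p = 3.5e-06). ANKRD1 had 1.99, 2.66 and 1.47 CPM untreated, 12.1, 14.9 and 11.1 CPM at 2 h and 2.74, 2.32 and 3.23 CPM at 6 h (2.64, SE 0.173, adjusted p = 2.4e-12). In both the 2 h libraries stood clear of all others. FGF1, a fibroblast growth factor, rose by 3.26 on the log2 scale and stayed up, with a mean of 7.63 CPM at 6 h against 5.93 CPM at 2 h. TGFB2, which is counted in this list and among the TGF-beta ligands, fell from 3.81, 3.42 and 4.97 CPM to 0.25, 0.141 and 0.264 CPM (-4.18). In the Notch pathway 3 of 20 tested genes fell (15%) and 2 rose (10%), near the shares of all genes. The receptor NOTCH1 fell from 40.2 CPM to 11.6 CPM (-1.79) and its feedback target NRARP from 4.99 CPM to 0.786 CPM (-2.68), while the ligand JAG1 (2.00) and the fringe glycosyltransferase MFNG (2.41) rose from about 1 CPM.

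Among transcription factor families the forkhead genes stood lowest. Of 36 tested 16 fell (44.4%, beside 11.0% of all genes) and 2 rose (5.56%, beside 6.40%). Their median was -0.64, or -0.50 with the 4 genes that had a group at the count floor of 3 set to their bounds. FOXE1, known for thyroid and squamous development, had 33.2, 24.9 and 28.3 CPM untreated and 1.36, 0.991 and 1.08 CPM at 2 h (-4.65, SE 0.187, adjusted p = 3.9e-16). FOXN1, a factor of thymus and hair epithelium, had 9, 7 and 30 counts untreated and 0 in every 2 h library, at least 8.84-fold lower with the floor set at 3 counts per library. KLF and SP factors changed in 8 of 24, with 12.5% higher and 20.8% lower. KLF7 (2.21), KLF4 (2.06) and KLF6 (1.73) were higher and KLF2 (-2.21, or -1.62 without untreated replicate 1) was among 5 lower. KLF7 had 17.8, 22.9 and 18.5 CPM untreated, 95.4, 92.9 and 85.3 CPM at 2 h and 25.6, 26.1 and 26.2 CPM at 6 h, so its rise had largely reversed. SOX9 rose from 21.9, 61.8 and 10.7 CPM to 148, 148 and 149.7 CPM (2.25, SE 0.391, adjusted p = 0.00021), with the untreated libraries far apart and a log2 fold change of 3.18 without replicate 2. SOX18 fell from 1.69 CPM to 0.0646 CPM. Of ZNF genes, the largest family, 14 of 452 (3.10%) were lower and 9 (1.99%) higher, with a median of 0.00. With library totals 22 were lower.

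Of 32 tested interferon response genes, which act against viruses, 15 fell (46.9%, beside 11.0% of all genes) and 1 rose at 2 h. The riser was ISG20 (1.69), named after its values were seen. The other 16 were not called in either direction. The list had a median of -0.70. At 6 h 23 of the 32 were lower than untreated, beside 16.3% of all genes, with a list median of -1.58. BST2, which tethers virions, had 53.8, 37.97 and 99.7 CPM untreated, 7.36, 8.75 and 6.12 CPM at 2 h and 1.86, 2.08 and 2.604 CPM at 6 h (log2 fold change at 2 h -3.11, SE 0.282, adjusted p = 3.5e-07). OAS3, an antiviral synthetase named after its values were seen, had 328, 299.5 and 551 CPM untreated, 94.4, 77.96 and 85.2 CPM at 2 h and 34.6, 43.8 and 55.4 CPM at 6 h (-2.19, SE 0.21, adjusted p = 7.8e-07). Untreated replicate 3 was the highest library in both, and each 2 h library lay below each untreated one. MX2, IFITM2 and IFI44L were lower, at log2 fold changes of -2.78, -2.52 and -2.50, and MX2 stood at -1.98 without untreated replicate 3. In the second untreated PEO4 set BST2 had between 525 and 699 CPM and OAS3 between 1073 and 1347 CPM, above the untreated libraries here. In PEO1 BRCA2+ 2 of the 32 were lower and 2 higher at 2 h, beside 6.39% and 1.18% of all genes there. Its untreated BST2 mean was 0.0719 CPM.

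**Figure D3:**
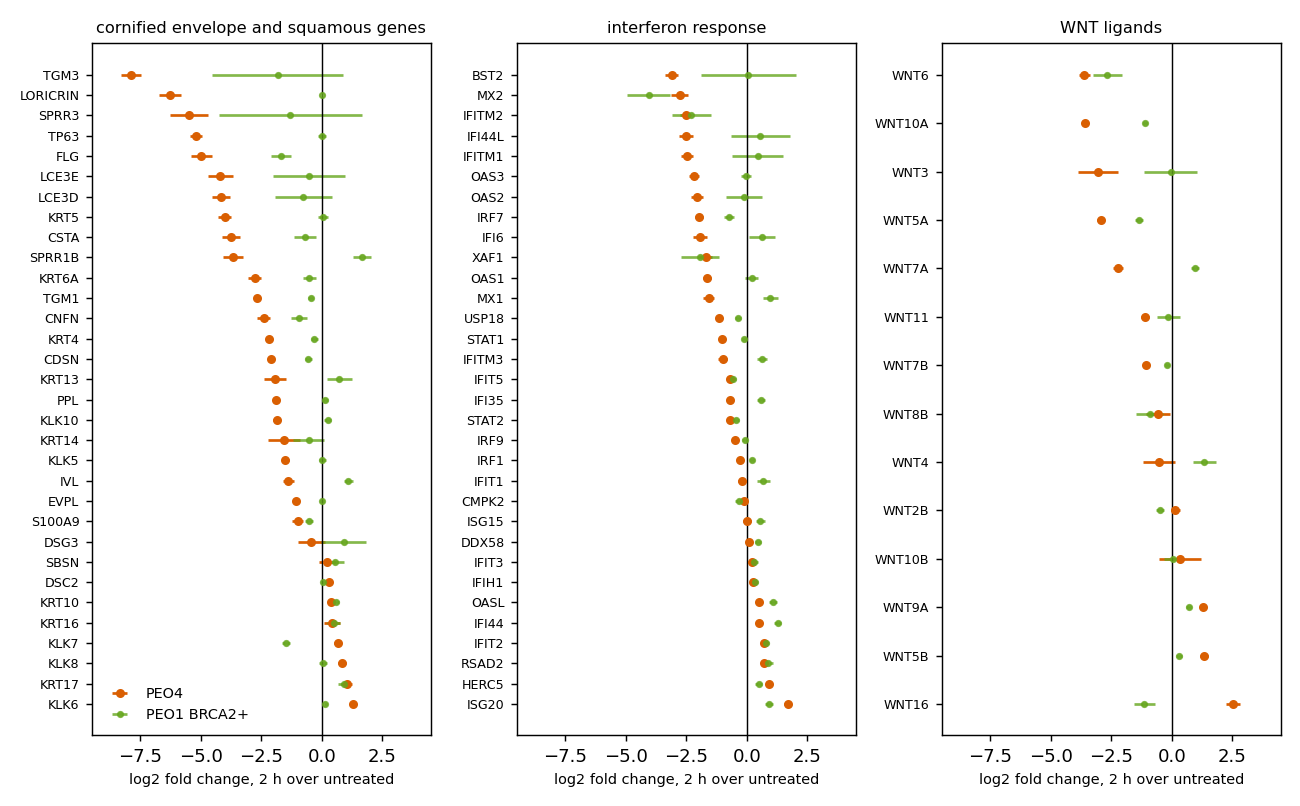
Log2 fold change at 2 h over untreated, with its standard error as a bar, for every tested member of the cornified envelope, interferon and WNT ligand lists in PEO4 and PEO1 BRCA2+. In PEO4 most points lie left of 0, with TGM3 the lowest at -7.89, and PEO1 BRCA2+ points of most members lie nearer to 0, with LORICRIN placed at 0 because it had no reads there.

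Of 23 NF-kB driven chemokines and cytokines 5 rose (21.7%, beside 6.40% of all genes) and 3 fell (13.0%, beside 11.0%). The neutrophil chemokine CXCL8 (interleukin 8) had 0.649, 1.21 and 0.276 CPM untreated and 5.61, 6.45 and 6.96 CPM at 2 h (3.18, SE 0.236, adjusted p = 4.3e-10). CXCL1 (2.03, or 2.67 without untreated replicate 2) and CXCL2 (2.32) rose from means of 1.39 and 0.978 CPM, and CXCL5 had 0 counts in every untreated library and 7, 3 and 12 counts at 2 h. All 4 stayed low in absolute terms, since none passed 7 CPM. Of 24 estrogen receptor targets 6 rose and 2 fell. CA12, a carbonic anhydrase, had 0.346, 0.854 and 0.507 CPM untreated, 11.2, 12.99 and 8.54 CPM at 2 h and 0.739, 0.824 and 0.898 CPM at 6 h (4.28, SE 0.218, adjusted p = 2.2e-14). GREB1, a coactivator of the estrogen receptor, had 11.99, 26.7 and 24.2 CPM untreated, 89.6, 131 and 77.2 CPM at 2 h and 12.2, 11.9 and 12.4 CPM at 6 h (2.25, SE 0.254, adjusted p = 3.8e-06). Both were thus high at 2 h alone.

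Matrix and adhesion genes changed in both directions. Of 30 collagen genes 11 fell (36.7%, beside 11.0% of all genes) and 1 rose (3.33%, beside 6.40%), with a median of -0.52. Without untreated replicate 2, 4 were called higher. COL5A2, a fibrillar collagen chain, had 54.2, 15.97 and 54.7 CPM untreated and 1.305, 1.19 and 1.01 CPM at 2 h (-5.16, SE 0.422, adjusted p = 1.4e-07). COL17A1, the transmembrane collagen of epithelial hemidesmosomes, had 8.399, 10.3 and 12.6 CPM untreated and 0.889, 0.934 and 0.6001 CPM at 2 h (-3.70, SE 0.183, adjusted p = 1.3e-14). Of 26 tested genes named as integrins 4 rose (15.4%) and 3 fell (11.5%, near the share of all genes). ITGB6, the epithelial subunit of an integrin that activates TGF-beta, had 10.5, 32.4 and 5.21 CPM untreated and 160.5, 142 and 143 CPM at 2 h (3.23, SE 0.391, adjusted p = 8.4e-06), with replicate 2 the highest untreated library and a log2 fold change of 4.23 without it. Among 30 markers and regulators of epithelial-mesenchymal transition 6 rose and 3 fell. The intermediate filament VIM (vimentin) had 8.36, 27.7 and 3.18 CPM untreated and 126, 153 and 108 CPM at 2 h (3.33, SE 0.453, adjusted p = 2.5e-05), the matrix protease MMP2 rose by 2.67 and the matrix protein TNC by 2.25. All 3 were higher in untreated replicate 2 than in the other untreated libraries, and without it their log2 fold changes were 4.47 for VIM, 3.79 for MMP2 and 3.57 for TNC. With library totals 5 genes of the list were lower. CDH1 (E-cadherin), chosen after its values were seen, had 134, 116 and 151 CPM and 118, 118 and 124 CPM (-0.16, adjusted p = 0.051). Voltage-gated calcium channel genes had 4 of 19 lower (21.1%) and 1 higher (5.26%). CACNA1B, a neuronal N-type channel, went from 3.42, 2.31 and 5.805 CPM to 0.417, 0.906 and 0.336 CPM (-2.81).

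Growth and stress pathways are read here beside the 6.40% of all genes that rose and the 11.0% that fell. Of 20 mTOR pathway genes DEPTOR and EIF4EBP1 (1.22) rose, and DDIT4L (-4.71), a stress-induced mTOR inhibitor, and PRR5L fell, 10% in each direction. Of 29 p53 targets 4 rose (13.8%) and 1 fell (3.45%), each by less than 2 on the log2 scale, among them CCNG1 (1.16) and TP53INP1 (-1.75). The stress response factor CEBPB fell from 495, 497 and 517 CPM to 99.5, 122.8 and 115 CPM (-2.16, SE 0.0914, adjusted p = 3.8e-14), and the other 27 genes of the integrated stress and unfolded protein responses included 2 called higher. No heat shock gene of 17 rose at 2 h, and HSPA1A, whose near-identical copy HSPA1B makes its counts uncertain, had 11, 16 and 9 counts untreated and 0 at 2 h, at least 7.05-fold lower. At 6 h 8 of the 17 were higher than untreated, beside 6.26% of all genes at that time. Of 15 oncogenes known for promoter G4s 4 fell (26.7%) and 1 rose (6.67%). VEGFA, the main angiogenic growth factor, had 248, 184 and 259.5 CPM untreated and 80.5, 80.7 and 79.98 CPM at 2 h (-1.52, SE 0.0858, adjusted p = 1.7e-12), and the growth factor receptor FGFR2 and the ligand PDGFA were lower at -1.82 and -3.41, the latter at -4.51 without treated replicate 2. The single rise was lost under several other settings.

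Lists of core nuclear machinery held few or no calls, beside 11.0% of all genes that fell and 6.40% that rose. No gene was called among 36 of homologous recombination and the Fanconi pathway and 24 G4 helicases and binding proteins. Nor was any of 16 SR splicing factors and 37 mitotic genes. Smaller changes are not counted by these calls. In these 4 lists the groups did not overlap for 21, 18, 10 and 25 members, beside 10926 of all 17020 genes. By adjusted p alone, 5675 of all genes were higher and 5447 lower. RBBP8, which starts end resection, had 152, 197 and 151 CPM untreated and 255, 262 and 245 CPM at 2 h (0.61, adjusted p = 4e-08). NCL (nucleolin), which binds G4s, had 1372, 1363 and 1273 CPM and 1585, 1404 and 1709 CPM (0.23, adjusted p = 0.0037), and TOP2A, a mitotic topoisomerase, 351, 377 and 356 CPM and 362, 351 and 359 CPM (-0.02, adjusted p = 0.79). Without untreated replicate 2, 1 helicase or binding protein and 1 mitotic gene were called higher. Of 22 genes of P-TEFb and transcript elongation ELL2 rose (1.39) and AFF1 fell (-1.31), both subunits of elongation complexes. Of 39 DNA replication genes the S phase activator E2F2 fell (-1.49). Of 26 Polycomb, trithorax and BET genes JARID2 rose (1.12), and KMT2D (-1.09) and CBX2 (-1.03) fell, of which JARID2 was not called with library totals, KMT2D without untreated replicate 3 or treated replicate 1, and CBX2 without untreated replicate 1 or treated replicate 2.

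Among genes of ribosomes and respiration all calls were rises. Of 77 ribosomal protein genes 21 rose (27.3%, beside 6.40% of all genes) and none fell, with a median of 0.84. Of 78 nuclear genes of oxidative phosphorylation 12 rose (15.4%) and none fell, with a median of 0.68. RPS29 had 150.1, 145 and 154 CPM untreated and 479.6, 525 and 492 CPM at 2 h (1.74, SE 0.0691, adjusted p = 3.4e-16), and RPL38 139, 144 and 142 CPM and 447, 481 and 475 CPM (1.72, SE 0.0583, adjusted p = 2.8e-17). ATP5ME, a small subunit of ATP synthase, had 76.1, 79 and 72.97 CPM and 225, 244 and 254 CPM (1.66, SE 0.0776, adjusted p = 7.6e-15). The replicates of each lay close together, and the groups stood far apart. UQCRHL, a copy of UQCRH that shares its reads, rose by 3.50 and is uncertain. Most members of both lists were not called, and with library totals 13 ribosomal protein and 8 oxidative phosphorylation genes were called higher. Many genes of both families have short transcripts, and the response varied with spliced length over all genes. The median log2 fold change was 0.26 for 1111 genes with spliced transcripts of 0.5 to 1 kb, 0.19 for 3040 of 1 to 2 kb, 0.05 for 5595 of 2 to 4 kb, -0.09 for 4518 of 4 to 8 kb and -0.24 for 1302 over 8 kb. Without ribosomal protein genes it was 0.23 for the first of these classes. In PEO1 BRCA2+ the medians were 0.16, 0.10, 0.03, -0.07 and -0.17, and in PEO4 at 6 h they were 0.03, 0.03, 0.01, -0.04 and -0.09. The 718 genes under 0.5 kb, which include small RNA genes, had a median of -0.37. Depth and ribosomal RNA also differed between treated and untreated libraries in both lines, and the part of these in the length trend was not tested.

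**Figure D4:**
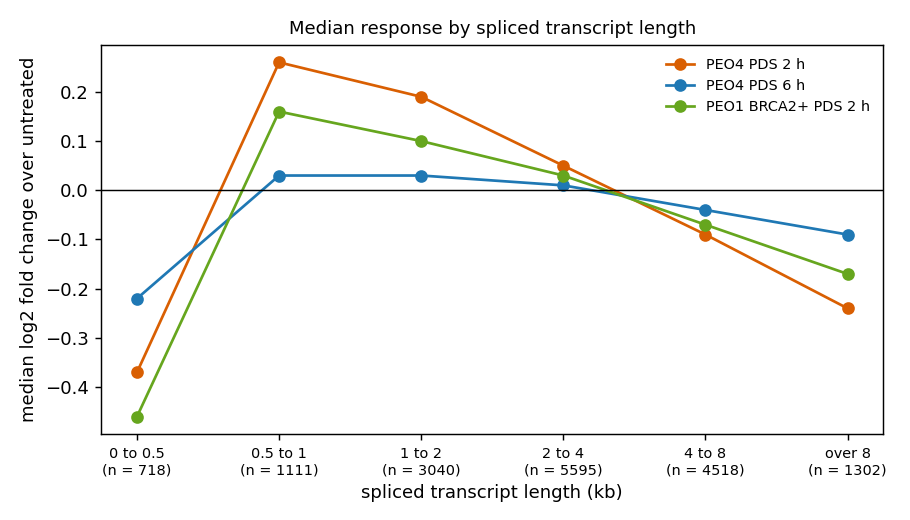
Median log2 fold change over untreated by class of spliced transcript length (GENCODE release 44, number of genes in brackets) for PEO4 at 2 h and 6 h and PEO1 BRCA2+ at 2 h. From 0.5 kb upward the 2 h medians decline with length, from 0.26 to -0.24 in PEO4, while those at 6 h lie between 0.03 and -0.09 and do not differ between the first pair of these classes. The 2 PEO4 lines share their untreated libraries.

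Replication-dependent histone genes, whose transcripts lack a poly(A) tail, took a small share of counts. Of 37 tested 14 fell (37.8%, beside 11.0% of all genes) and 2 rose (5.41%, beside 6.40%). All histone genes took between 0.00462% and 0.00644% of counts untreated and between 0.00218% and 0.00268% at 2 h. H1-2, a linker histone, had 11.99, 10.2 and 6.496 CPM untreated and 1.28, 1.302 and 1.49 CPM at 2 h (-2.81, SE 0.174, adjusted p = 9.4e-13), against 7.06 CPM untreated and 14.6 CPM at 2 h in PEO1 BRCA2+. Without untreated replicate 1 the number lower was 8, with only the 2 groups in the fit 9 and with a filter of 1 CPM in 3 libraries 6. Of 10 metallothioneins 2 rose, and none remained called without untreated replicate 3. Of 17 ovarian markers 2 fell (11.8%, near the share of all genes). FOLR1 (folate receptor alpha) went from 35.6, 23.8 and 41.5 CPM to 3.83, 5.32 and 2.95 CPM (-3.07) and MSLN (mesothelin) from 651 CPM to 277 CPM (-1.23). The mesothelial marker CALB2 (calretinin) rose from 0.173, 0.351 and 0.0921 CPM to 6.67, 8.15 and 7.08 CPM (5.15) and UPK3B, another, fell (-2.76).

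PEO1 BRCA2+ cells treated in the same way, with untreated libraries of their own, gave the comparison for the line. There 201 genes rose and 1087 fell. Of the 1089 genes higher in PEO4, 88 (8.08%) were also higher in PEO1 BRCA2+, which is 43.8% of the 201, and 63 were lower there. Of the 1870 lower in PEO4, 473 (25.3%) were also lower in PEO1 BRCA2+, which is 43.5% of the 1087, and 19 were higher. The difference between the responses was tested gene by gene as an interaction. The response was more positive in PEO4 for 1039 genes (6.10%) and more negative for 837 (4.92%), and without untreated PEO4 replicate 2 for 1130 and 933.

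DEPTOR gave the largest positive difference. In PEO1 BRCA2+ it had 3.79, 4.75 and 5.05 CPM untreated and 5.07, 4.42 and 3.998 CPM at 2 h, with overlapping groups, beside the rise in PEO4, and the difference of log2 fold changes was 5.72 (SE 0.341, adjusted p = 6.8e-09). IGFBP5 fell in PEO1 BRCA2+ (23.4, 19.8 and 30.2 CPM to 10.3, 13.9 and 12.1 CPM) and rose in PEO4, a difference of 5.22 (SE 0.659, adjusted p = 4.3e-05) that came to 7.09 without untreated PEO4 replicate 2. CDH6, a cadherin of kidney and ovarian carcinoma, had 19.7, 54.7 and 15.8 CPM untreated and 233, 233 and 202 CPM at 2 h in PEO4 and 62.8, 66.5 and 62.6 and 22.2, 23.8 and 27.5 CPM in PEO1 BRCA2+ (4.29, SE 0.453, adjusted p = 9.2e-06). The groups did not overlap in PEO1 BRCA2+ either, the directions were opposite, and the difference for CDH6 was 5.03 without that library. SCNN1G, a subunit of the epithelial sodium channel, likewise rose from a mean of 1.02 to 9.57 CPM in PEO4 and fell from 18.4 to 5.803 CPM in PEO1 BRCA2+ (4.89, SE 0.205, adjusted p = 1.8e-14). TRHDE differed by 4.24 (SE 0.32, adjusted p = 9.6e-08), or by 4.93 without that library.

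On the negative side, FOXQ1 had 15.3, 14.1 and 19.6 CPM untreated and 20.8, 21.2 and 19.6 CPM at 2 h in PEO1 BRCA2+ and differed by -7.71 (SE 0.702, adjusted p = 2.3e-06). PLXNA4, a semaphorin receptor, had 113, 88.7 and 137 CPM untreated and 5.28, 5.92 and 5.38 CPM at 2 h in PEO4, and 2.396, 2.52 and 3.47 CPM and 3.68, 4.96 and 4.27 CPM in PEO1 BRCA2+ (-4.98, SE 0.242, adjusted p = 1.7e-11). The treated PEO4 level of PLXNA4 came close to that of PEO1 BRCA2+. LRRTM1 (-7.69, SE 1.35, adjusted p = 0.00027), COL5A2 (-5.49, SE 0.954, adjusted p = 0.00054) and SERPINB2 (-5.39, SE 0.799, adjusted p = 0.00016) had untreated means of 0.0573, 0.548 and 1.67 CPM in PEO1 BRCA2+, near the lower end of what these counts resolve. The difference for LRRTM1 was -8.93 without untreated PEO1 BRCA2+ replicate 2. For EGR1 and RPS29 no difference between the lines was called, at 0.22 (SE 0.487, adjusted p = 0.76) and 0.10 (SE 0.0956, adjusted p = 0.45). The response was more negative in PEO4 for 16 of 32 cornified envelope genes and more positive for 2, and more negative for 8 of 32 interferon genes and more positive for 0, beside 4.92% and 6.10% of all genes. Some of these genes had almost no reads in PEO1 BRCA2+, such as LORICRIN, TGM3 and BST2.

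**Figure D5:**
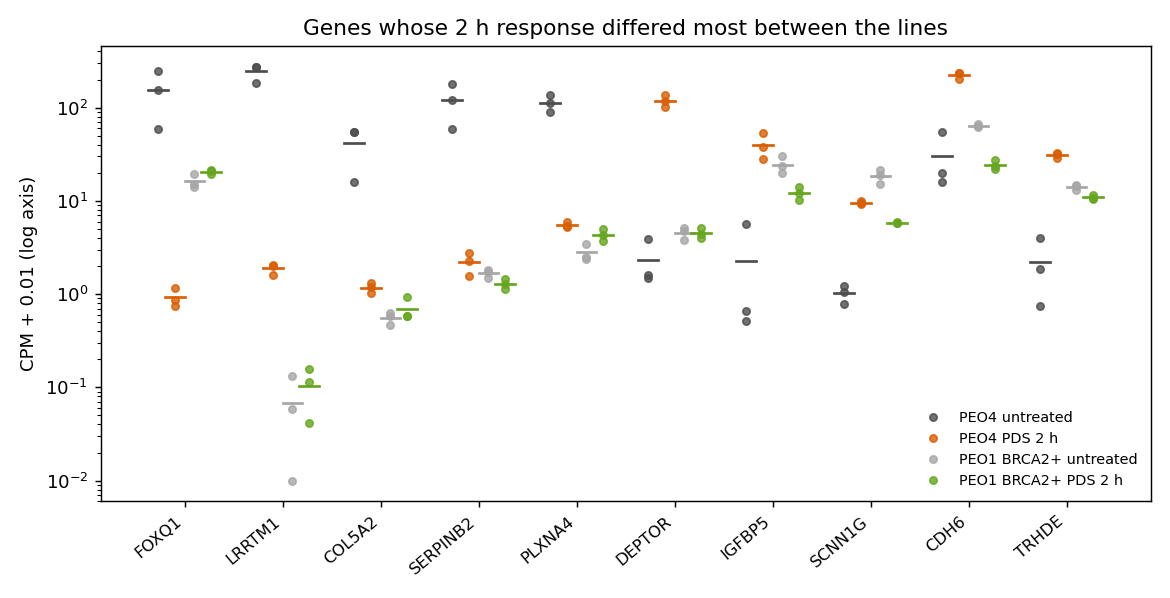
CPM plus 0.01 on a log axis in each library of PEO4 and PEO1 BRCA2+, untreated and after 2 h of PDS. The 5 genes named for the most negative difference in response are on the left and the 5 for the most positive on the right. Points are libraries and bars are means of 3. In PEO4 the groups are apart in all 10 genes, as their choice required. In PEO1 BRCA2+ the untreated levels of FOXQ1, LRRTM1, COL5A2, SERPINB2 and PLXNA4 are below those of PEO4.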

How the data were processed

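RNA was extracted from PEO4 cells on columns with DNase digestion and, per the study's methods, enriched for poly(A) RNA for sequencing. Per the labels and the study's methods the authors checked reads with FastQC, trimmed them with fastp, aligned them to hg38 with STAR and counted reads per gene with featureCounts, and they deposited whole-number counts without normalization. The annotation and the use of strand in counting are not given in the sources used here, so overlapping, antisense and near-identical genes are uncertain. From the table of 18 libraries 1 line without readable counts was left out and from the table of 6 libraries 2 such lines, and 4746 genes had 0 counts throughout the former.

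Genes were kept by filterByExpr (minimum count 10, minimum total 15). The 18 libraries of the table were scaled by TMM and fitted together with a mean for each of 6 groups by a robust quasi-likelihood model (edgeR 4.0.16, R 4.3.3, common dispersion 0.00502, 12 residual degrees of freedom). Contrasts were 2 h against untreated in PEO4, the same in PEO1 BRCA2+, their difference, and 6 h in PEO4. Adjusted p-values are Benjamini-Hochberg values over all 17020 genes. CPM are counts per 1000000 of TMM-scaled library size. Bounds given for genes with 0 counts in a group used a floor of 3 counts per library, which covers counting error only. Calls and the numbers of genes by size of change used the fitted values without that floor. The precision of each gene follows its counts, since library totals lay between 18699929 and 43156993. The second set of untreated PEO4 libraries was scaled in its own table.

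The 44 gene lists, 5 marker lists, members and tests were chosen with earlier results of these data known. Named genes are the 10 with the largest called change in each direction (mean log2 CPM of at least 3, groups not overlapping, no pseudogenes, clone names or small RNAs), up to 4 called members of a list with the largest change, 1 abundant member of a list with few or no calls, 5 per direction for the line difference, and markers. Others are marked in the text as chosen after their values were seen. Some genes and sequences that the rule selects are not reported here. Lists are described by counts and medians and no set test was run.

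Of the 17020 genes 16711 were matched to RefSeq (GRCh38.p14) for coordinates, 12721 to promoter windows and 16284 to GENCODE release 44 for transcript length. In simulated PEO4 data with 200 changed genes among 16576, 98 of 100 with a log2 change of 1.5 and 100 of 100 with one of 2 were recovered, with 1 false call. Only well-counted genes were changed, and each gene had the same spread in all groups. In the real data, variance between pairs of PEO4 replicates was 14.4 to 26.4 times that of counting alone untreated, 5.61 to 22.6 times at 2 h and 2.13 to 3.3 times at 6 h. The simulation left this out, so its rates need not hold for the 2 h comparison. The main fit shared its estimate of spread over all groups, so SEs and adjusted p of this comparison may be too small. With only the compared groups in the fit, 953 genes were higher and 1709 lower at 2 h. Same-numbered untreated and 2 h replicates did not deviate together (r between -0.185 and 0.0174), so they were not treated as pairs. Alternatives were 3 other scalings, DESeq2 1.42.0, 2 other filters, 2 other thresholds, a fit of the compared groups, a replicate term and each library left out. All columns of samples were mapped.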

Additional observations from a re-analysis of the deposited data

Results flagged for a closer look

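The 2 h response differed between PEO4 and PEO1 BRCA2+ by the interaction term of edgeR's quasi-likelihood test for 1039 genes with a more positive and 837 with a more negative response in PEO4. Among the genes named for it, the difference of log2 fold changes (PEO4 minus PEO1 BRCA2+) was 5.72 for DEPTOR, 5.22 for IGFBP5, 4.89 for SCNN1G, 4.29 for CDH6 and 4.24 for TRHDE. It was -7.71 for FOXQ1, -7.69 for LRRTM1, -5.49 for COL5A2, -5.39 for SERPINB2 and -4.98 for PLXNA4. All 10 passed the adjusted p of 0.05. With 3 libraries in a group, no library was tested for standing apart from its group.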

How the results depend on the processing

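The main counts were 1089 genes higher and 1870 lower in PEO4 at 2 h, and 1039 more positive and 837 more negative in PEO4 than in PEO1 BRCA2+. Only the thresholds moved these by more than 1.5 times. By adjusted p alone they were 5675, 5447, 3285 and 3066, and at the stricter limits (0.01 for the adjusted p, 2 for the log2 fold change) they were 300, 593, 299 and 282. With each library left out in turn they lay between 1027 and 1250, 1695 and 2026, 945 and 1130, and 776 and 933. With a term for the replicate number (replicate block) they were 1087, 1863, 1026 and 824, and the numbers do not pair the samples; among the genes named by the rule or used as markers the block changed 2 calls, among them that of the marker CLDN4 (gained). Over these genes and settings other than thresholds, 3047 of 3136 values kept their side of the threshold, 69 lost and 20 gained a call, and no called value changed sign. Of the list counts 1134 of 1232 stayed within 1.5 times. Among the lost calls were those of ATF3, MT1E and BATF3, and 7 of the gained ones were of the marker MUC16, as lower; the cause was not tested. The G4 motif shares moved from 35.9%, 36.1% and 33.7% to 50.2%, 51.7% and 49.7% with longer loops. Depth was highest in treated libraries, so genes with few counts untreated are the least certain.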
